A study of Rattus norvegicus with 8 samples.

Results

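Rxfp3, Gprc5a and Ntsr1 encode G protein-coupled receptors, and they were followed here as 3 genes among the 1586 gene names of 2 tables of RNA levels in INS-1 cells. They were chosen by symbol, with their values in these tables already known, so what follows describes them and tests nothing. A glucose table of 1344 genes lists all 3, and an A-CREB table of 566 genes lists Rxfp3, while Gprc5a and Ntsr1 were not analysed here in that setting. Both tables hold only genes whose forskolin level was over 2 times their DMSO level in a reference condition. The receptors' induction in those reference conditions is therefore how they came to be listed.

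INS-1 is a rat insulinoma line that secretes insulin and stands in for the beta cell of the pancreas. The 4 groups of the glucose table were 2.8 mM glucose with DMSO, 2.8 mM with 10 uM forskolin, 20 mM with DMSO, and 20 mM with 10 uM forskolin, after 3 days at either glucose level and 2 h with forskolin or vehicle. In the A-CREB table the cells were at 11 mM glucose with DMSO or 10 uM forskolin for 2 h, either uninfected or under an A-CREB adenovirus for 2 days. Forskolin activates adenylyl cyclase and raises cAMP, and A-CREB, a dominant-negative inhibitor, keeps the cAMP-responsive transcription factor CREB from DNA. The study asked how glucose exposure and CREB activity shape gene regulation by cAMP in beta cells. The control cells of the second table had no virus, so infection and A-CREB cannot be told apart. Each group was 1 library, and differences between conditions have no replicates behind them.

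A G protein-coupled receptor sits in the cell membrane and passes on a signal from outside through a G protein. The relaxin-3 receptor encoded by Rxfp3 couples to inhibitory G proteins that lower cAMP, and is best known from brain circuits of appetite and stress. Ntsr1 encodes the high-affinity neurotensin receptor, which couples mainly to Gq, a G protein that raises cell calcium, and neurotensin is known to act on insulin secretion. Gprc5a, also called Rai3, is an orphan receptor induced by retinoic acid. It has no established peptide ligand, so the 3 genes are called receptors here and not peptide receptors. CREB binds a DNA element whose full form is the palindrome TGACGTCA and whose core is TGACG.

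Since all 3 genes were listed for their response to a cAMP-raising drug, the windows before the annotated starts of Rxfp3 and Ntsr1 are shown around that core. The RefSeq table of the rat assembly GRCr8 gave a window of 300 bases for 2 of the 3 receptors, and Gprc5a is named only. Each window was searched on both strands, and each held the core once, as CGTCA on the gene's own strand, which reads TGACG on the other. Capitals mark it in the 30 bases shown.
Rxfp3, GRCr8 chr2:61731962-61731991, minus strand: ctactctaaatcCGTCAaaacggatgctga
Ntsr1, GRCr8 chr3:187983590-187983619, plus strand: tgcagaggcaacCGTCAgccagtatccggg
The core begins at position -173 from the annotated start in Rxfp3 and at -176 in Ntsr1. Neither window held the full palindrome. For Rxfp3 the annotated gene begins with ATG, so this window may lie nearer the coding sequence than a promoter would. The 250 bases before the start of Ntsr1, at GRCr8 chr3:187983528-187983777 on the plus strand, give the wider setting of its core.
Ntsr1 upstream: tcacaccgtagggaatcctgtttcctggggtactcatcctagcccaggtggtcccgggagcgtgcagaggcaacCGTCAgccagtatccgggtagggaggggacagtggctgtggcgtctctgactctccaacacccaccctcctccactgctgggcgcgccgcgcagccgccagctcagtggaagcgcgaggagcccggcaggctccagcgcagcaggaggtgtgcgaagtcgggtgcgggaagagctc
Of all 33469 RefSeq windows of this length, 7097 (21.2%) held the core on either strand and 612 (1.83%) the full palindrome. A core in both receptor windows is a match of letters only.

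Levels are FPKM, that is, fragments normalised for transcript length and sequencing depth, so they can be set side by side between genes of one table. The sources used here give no total read numbers. The spacing of low values put the depth of the glucose libraries at 0.743 to 1.22 times that of 2.8 mM DMSO, and of the A-CREB table's libraries at 0.906 to 1.35 times that of no-virus DMSO. With these ratios each receptor's lower values, those under 50 fragments, fall close to whole numbers of fragments, and the smallest set that fits was taken as its estimated fragments. Intervals below are exact 95% Poisson intervals of a level, exact binomial (Clopper-Pearson) intervals of a ratio, or exact conditional intervals of a ratio of 2 folds, from those fragments. They cover counting error only, rest on an estimate that may be too low, and say nothing of the spread between cultures. Of 17 beta cell markers, Nkx2-2, MafA and Ucn3 were listed in the glucose table and Nkx2-2, MafA and Pdx1 in the A-CREB table, and of 20 markers of other cell types none was. A list of induced genes cannot show whether other markers were expressed.

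**Figure D1:**
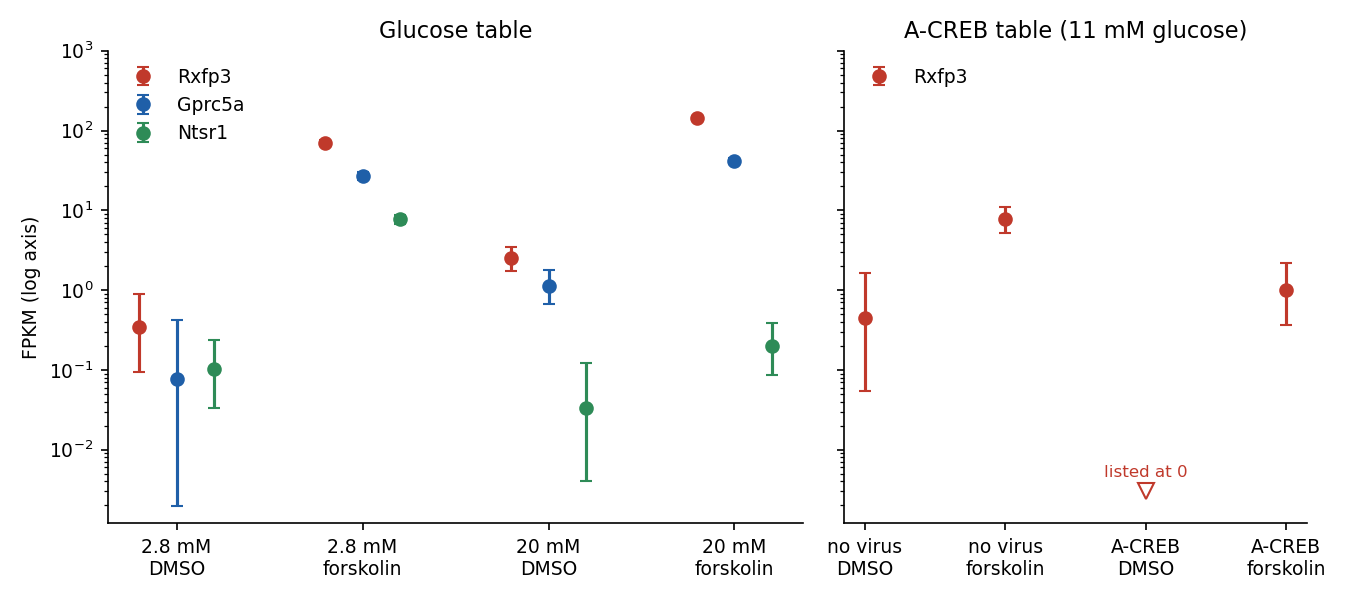
FPKM of the receptors in each of the 8 libraries, on a log axis, with the glucose table on the left and the A-CREB table on the right. Points are single libraries and bars are 95% Poisson intervals from estimated fragments, covering counting error only. Rxfp3 and Gprc5a were highest in 20 mM forskolin and Ntsr1 in 2.8 mM forskolin, and Rxfp3 was listed at 0 in A-CREB DMSO.

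Rxfp3 was nearly silent in vehicle at low glucose and reached the highest levels of the 3 receptors. Its level was 0.349 FPKM in 2.8 mM DMSO, 70.6 FPKM in 2.8 mM forskolin, 2.52 FPKM in 20 mM DMSO and 143 FPKM in 20 mM forskolin. Both forskolin libraries were far above both DMSO libraries, and within each treatment the 20 mM library was the higher. The 95% intervals of the 4 levels, 0.0950 to 0.893, 65.0 to 76.5, 1.74 to 3.47 and 136 to 151 FPKM, did not overlap. The 2.8 mM DMSO level rested on about 4 fragments and the 20 mM DMSO level on about 35.

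Rxfp3 thus had a smaller forskolin fold at 20 mM with a higher level in both arms. Forskolin over DMSO was 202-fold at 2.8 mM (interval 78.6 to 745) and 57.0-fold at 20 mM (41.1 to 82.8). The fold at 2.8 mM was 3.55 times that at 20 mM, with an interval of 1.25 to 13.7 for counting error. The level at 20 mM over that at 2.8 mM was 7.22 in DMSO (2.56 to 27.7) and 2.03 in forskolin (1.84 to 2.24). As log2(FPKM + 0.1), the scale used across the table, the folds were 7.30 and 5.78, a change of -1.52. This scale understates folds of low genes. In a bulk library, fewer responding cells and less RNA per cell cannot be told apart.

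Gprc5a showed the same order of libraries as Rxfp3 at lower levels. It was at 0.0768 FPKM in 2.8 mM DMSO, 26.9 FPKM in 2.8 mM forskolin, 1.13 FPKM in 20 mM DMSO and 41.5 FPKM in 20 mM forskolin. The 20 mM library was again the higher in each treatment, and the lowest value was about 1 fragment. The 95% intervals, 0.00195 to 0.428, 23.7 to 30.4, 0.671 to 1.79 and 37.7 to 45.5 FPKM, did not overlap. Its plain fold was 350-fold at 2.8 mM, with an interval of 62.3 to 13883 that shows how little 1 fragment fixes it, and 36.6-fold at 20 mM (22.9 to 62.4). The first was 9.56 times the second, with an interval of 1.49 to 400 for counting error. The ratio of 20 over 2.8 mM was 14.7 in DMSO (2.33 to 614) and 1.54 in forskolin (1.32 to 1.80). On the log2(FPKM + 0.1) scale the folds were 7.25 and 5.07, a change of -2.18.

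Ntsr1 went the other way in forskolin. Its level was 0.102 FPKM in 2.8 mM DMSO, 7.68 FPKM in 2.8 mM forskolin, 0.0336 FPKM in 20 mM DMSO and 0.198 FPKM in 20 mM forskolin. Of the 4 libraries, 2.8 mM forskolin alone stood high. The intervals of the others, 0.0333 to 0.239, 0.00407 to 0.121 and 0.0857 to 0.391 FPKM, overlapped. These 3 values rested on about 5, 2 and 8 fragments, against about 278 in 2.8 mM forskolin.

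For Ntsr1 the forskolin level was 38.8 times lower at 20 mM than at 2.8 mM (interval 19.4 to 90.5), while the DMSO level was 3.04 times lower, with an interval of 0.500 to 32.1 that includes no difference. Forskolin over DMSO was 75.1-fold at 2.8 mM (31.7 to 232) and 5.90-fold at 20 mM (1.18 to 57.1), and the first was 12.7 times the second (1.03 to 91.3). On the log2(FPKM + 0.1) scale the folds were 5.27 and 1.16 and the change was -4.11. With a pseudocount of 1 the fold at 20 mM was 0.21 on the log2 scale, below the 2-fold line. What these few fragments resolve is the low forskolin level at 20 mM, not the size of the fold there.

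**Figure D2:**
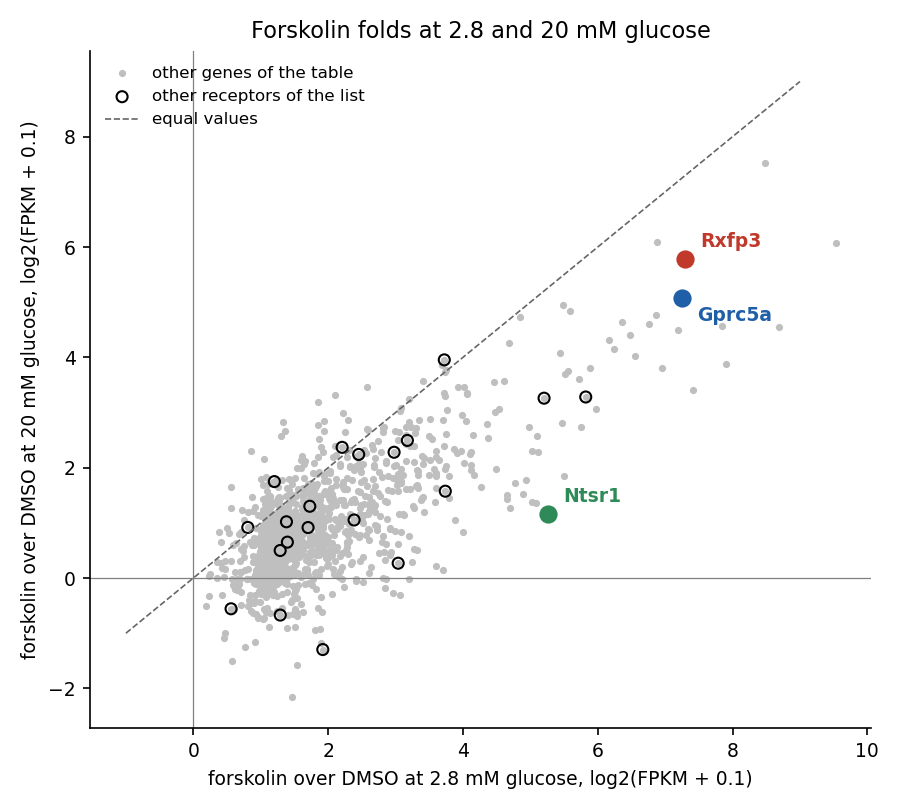
Forskolin over DMSO at 20 mM glucose (y) against 2.8 mM glucose (x), both as log2 ratios of FPKM + 0.1, for genes of the glucose table with no value of 0. Filled colored points are the 3 receptors, open circles other receptors of the list, and the dashed line equal folds. All 3 receptors lie below the line, Ntsr1 farthest, at 5.27 and 1.16.

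Against the whole glucose table, all 3 receptors were at 2-fold or more at 2.8 mM, as were 88.7% of listed genes, and all 3 at 20 mM, as were 37.2%. The fold was lower at 20 mM by 2-fold or more for all 3, as for 39.3% of genes. With a pseudocount of 1 the change was -0.37 for Rxfp3 and -0.38 for Gprc5a, short of 2-fold, and -2.76 for Ntsr1. Relative to the table's median the change was -0.71 for Rxfp3, short of 2-fold, -1.37 for Gprc5a and -3.30 for Ntsr1, and the fold of Ntsr1 at 20 mM was 0.43 on the log2 scale. In the order of folds, Rxfp3 was at place 7 and Gprc5a at place 8 of 1344 at 2.8 mM, next to each other, and at places 5 and 6 at 20 mM. Ntsr1 was at place 31 at 2.8 mM, between Sphk1 and Sstr1, and at place 410 at 20 mM. Counted from the lowest change of fold, Ntsr1 was at place 3, Gprc5a at 90 and Rxfp3 at 246.

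The ratios between glucose levels set the receptors further apart. In DMSO, Rxfp3 and Gprc5a were higher at 20 mM by 2-fold or more, as were 16.1% of genes, with log2 ratios of 2.54 and 2.80 against a median of 0.14 over the table. With a pseudocount of 1 that of Gprc5a was 0.99, just short of 2-fold. In forskolin, Rxfp3 was higher by 2-fold or more, as were 3.50% of genes, and Ntsr1 lower, as were 34.1%. Their log2 ratios in forskolin were 1.02 and -4.71, that of Gprc5a was 0.62, and the table's median was -0.67. Rxfp3 only just passed 2-fold, and the interval of its plain ratio in forskolin, 1.84 to 2.24, includes 2. In forskolin at 20 mM, Rxfp3 was at 724 times and Gprc5a at 209 times the FPKM level of Ntsr1. In forskolin at 2.8 mM they were at 9.19 and 3.50 times its level. The ratios at 20 mM are loosely fixed, since Ntsr1 there rested on about 8 fragments, with an interval of 0.0857 to 0.391 FPKM. The table was cut on 2.8 mM values, and the part this plays in lower values at 20 mM was not tested.

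**Figure D3:**
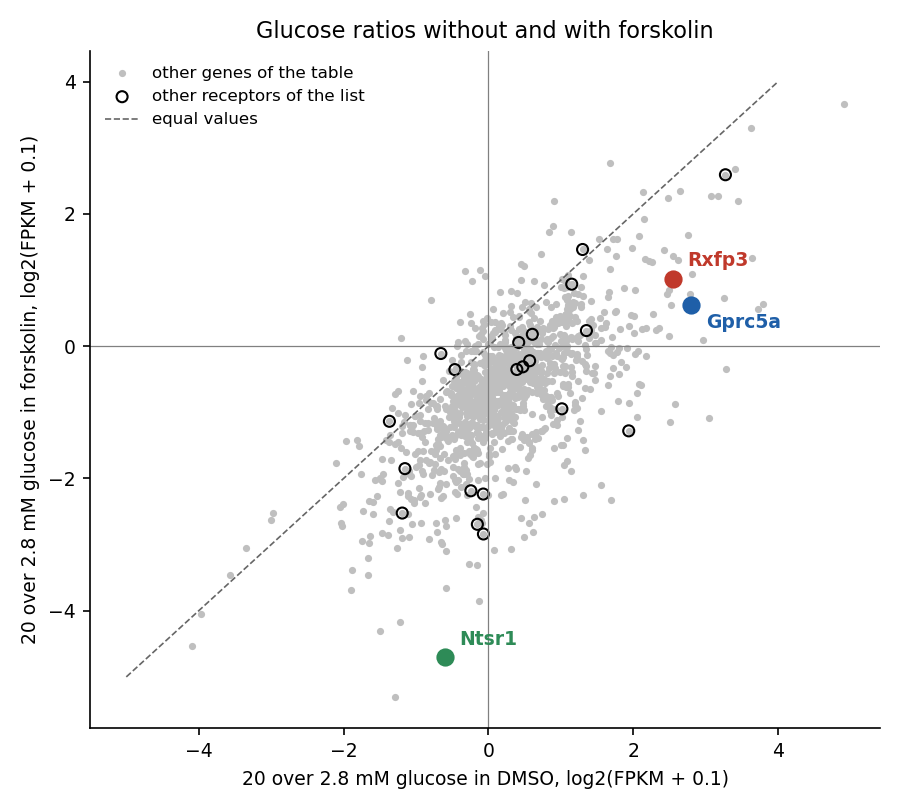
Ratio of 20 over 2.8 mM glucose in forskolin (y) against that in DMSO (x), both as log2 ratios of FPKM + 0.1, for genes of the glucose table with no value of 0. Filled points are the receptors, open circles other receptors of the list, and the dashed line equal ratios. Rxfp3 and Gprc5a lie above 0 on both axes, and Ntsr1 lies below 0 on both, at -4.71 in forskolin.

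Likeness between genes was measured as the root mean square distance of profiles of log2(FPKM + 0.1), each centred on its own mean over the 4 libraries, among the 1046 genes that averaged 1 FPKM or more and had no 0. Rxfp3 and Gprc5a were each other's nearest gene, at a distance of 0.25, where the median gene was 2.88 from Rxfp3. Next for both came Mest, an imprinted gene of the hydrolase fold, and Ccnd1, which encodes cyclin D1. Forskolin took Mest from 30.6 to 2749 FPKM at 2.8 mM, and at 20 mM from 153 to 3255 FPKM, so it too was higher at 20 mM in both. Ccnd1 went from 0.496 to 86.5 FPKM at 2.8 mM, and at 20 mM from 2.46 to 57.6 FPKM, so it was higher at 20 mM in DMSO and lower in forskolin. Ntsr1 was 2.85 from Rxfp3 and 2.68 from Gprc5a.

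The genes nearest Ntsr1 were Cd83, which encodes a surface protein of the immunoglobulin family, Cwc25, a splicing factor gene, and Lrrtm2, which encodes a synaptic adhesion protein. Their distances were 0.34, 0.52 and 0.65. With forskolin Cd83 went from 4.18 to 144 FPKM at 2.8 mM, and at 20 mM from 3.79 to 9.93 FPKM. The forskolin level of Cd83, like that of Ntsr1, was far lower at 20 mM, from a DMSO level that differed little. On the scale of FPKM + 0.1, Cwc25 had forskolin folds of 25.2 and 2.83 at 2.8 and 20 mM, and Lrrtm2 had 14.6 and 5.05. Likeness over 4 libraries is a description of these profiles. With a pseudocount of 1, none of the 3 genes nearest Ntsr1 was among its nearest, 1 of 3 for Gprc5a and all 3 for Rxfp3.

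**Figure D4:**
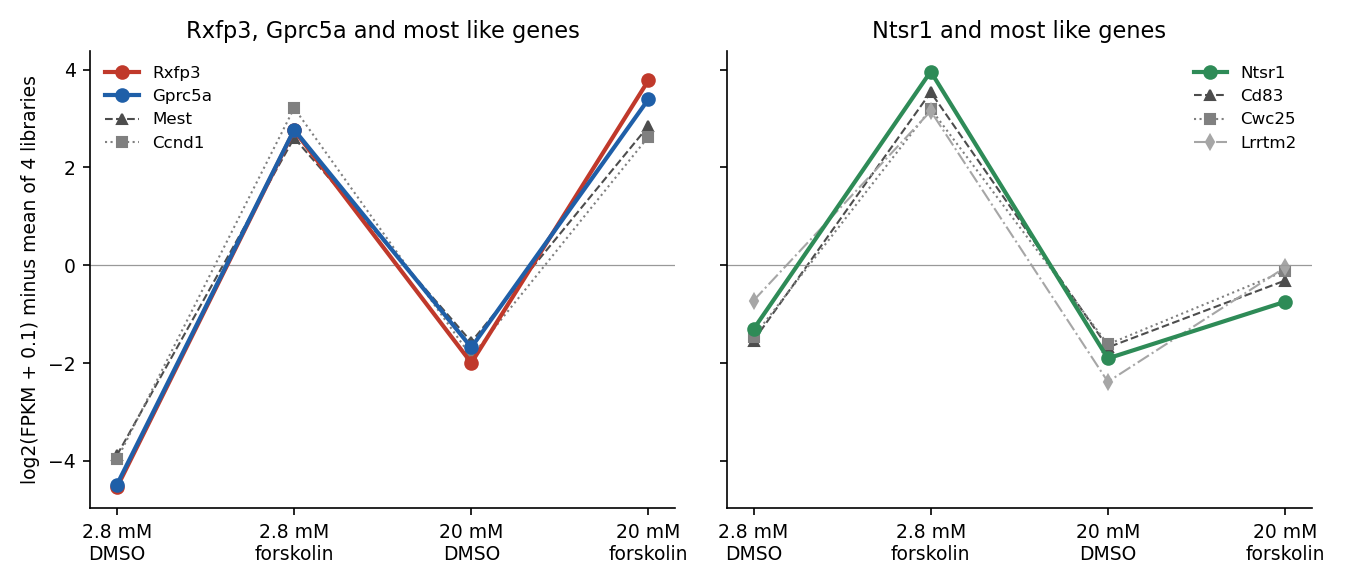
Profiles of log2(FPKM + 0.1), each minus its mean over the 4 libraries of the glucose table, for Rxfp3 and Gprc5a (left) and Ntsr1 (right) with their nearest genes. Each point is 1 library. On the left 20 mM forskolin is higher than 2.8 mM forskolin for every gene but Ccnd1, and on the right it is lower for all 4 genes.

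The second table asked how A-CREB changed the response at 11 mM glucose, and there the forskolin level of Rxfp3 was lower with A-CREB. It was at 0.454 FPKM in no-virus DMSO and 7.70 FPKM in no-virus forskolin, listed at 0 in A-CREB DMSO, and at 1.00 FPKM in A-CREB forskolin. Only no-virus forskolin stood high. Its interval, 5.27 to 11.0 FPKM, lay above those of no-virus DMSO (0.0549 to 1.64) and of A-CREB forskolin (0.369 to 2.19), which overlapped each other. These values rested on about 31, 2 and 6 fragments. A rise over DMSO without virus was the condition for being listed. The 0 can be a failed estimate, and with about 2 fragments in no-virus DMSO a drop in DMSO was not detectable at this depth.

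Without virus, forskolin over DMSO was 17.0-fold for Rxfp3 (interval 4.35 to 147). On the log2(FPKM + 0.1) scale it was 3.82, at place 29 of 566, where the next genes were Spry1 above and Prdm1 below. With a pseudocount of 1 the log2 fold was 2.58, at place 63. A fold of 2 or more was reached without virus by 80.4% of genes. No fold was formed with A-CREB because of the 0. In forskolin Rxfp3 was 7.71 times lower with A-CREB than without virus (3.17 to 22.6). A level lower by 2-fold or more was found for 45.2% of the table, whose median log2 ratio was -0.90 against -2.83 for Rxfp3. This table was cut on no-virus values, and the part this plays in lower levels with A-CREB was not tested. The tables were treated separately, so the Rxfp3 levels at 11 mM cannot be set against those at 2.8 and 20 mM.

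The genes nearest Rxfp3 in this table, among 387, were Fos, a subunit of the transcription factor AP-1, at a distance of 0.25, Runx1, a transcription factor gene, at 0.53, and Ppargc1a, a coactivator of mitochondrial genes, at 0.61. Forskolin took Fos from 3.42 to 65.5 FPKM without virus and from 0.922 to 9.91 FPKM with A-CREB. Fos was lower with A-CREB in both treatments, and its forskolin fold on the log2 scale was 4.22 without virus and 3.29 with A-CREB. In forskolin Runx1 was at 82.6 FPKM without virus and 16.8 FPKM with A-CREB, and Ppargc1a at 79.4 and 7.28 FPKM. The profile of Rxfp3 enters its 0 through the pseudocount of 0.1, and with a pseudocount of 1 none of these 3 genes was among its nearest.

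**Figure D5:**
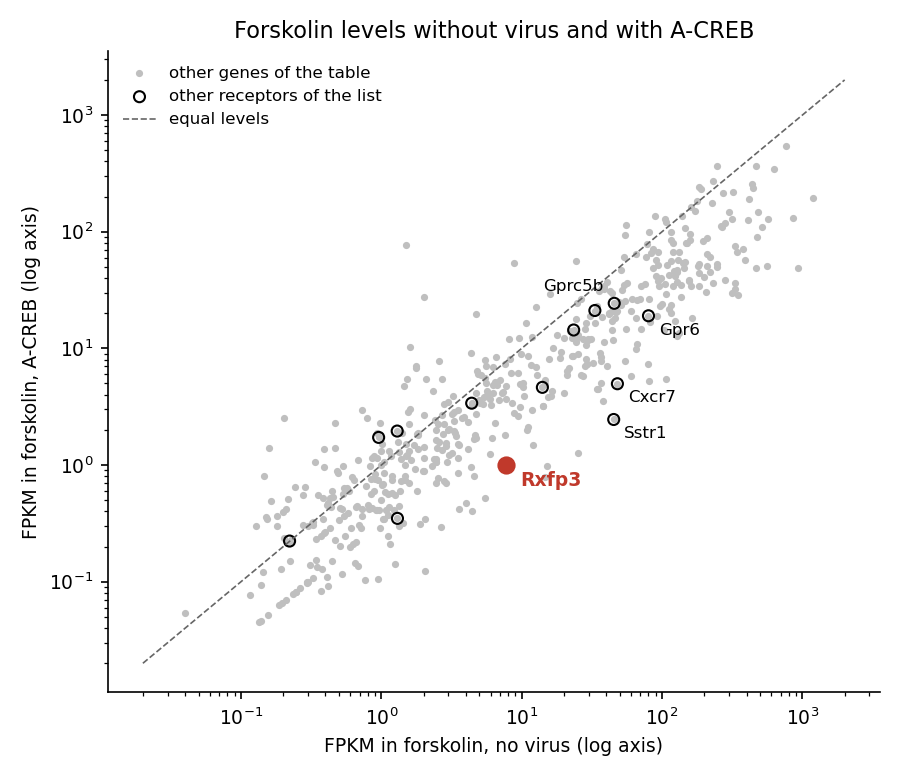
FPKM in forskolin with A-CREB (y) against FPKM in forskolin without virus (x), both on log axes, for genes of the A-CREB table listed above 0 in both libraries. The filled point is Rxfp3, at 7.70 and 1.00 FPKM, open circles are other receptors of the list, and the dashed line marks equal levels.

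Other receptor genes gave a setting for these 3. Of 367 other names of G protein-coupled receptors, 21 were listed in the glucose table. A fold of 2 or more was reached by 18 of the 21 at 2.8 mM, beside 88.7% of the table, and by 12 at 20 mM, beside 37.2%, with median log2 folds of 1.92 and 1.05 against 1.45 and 0.73 over all genes. The fold was lower at 20 mM by 2-fold or more in 8 of 21, a share close to the table's 39.3%, and higher by as much in none, against 0.893% of the table. The median change was -0.79 against -0.81.

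Among these 21, the somatostatin receptor gene Sstr1 came next below Ntsr1 in fold at 2.8 mM, going from 3.36 to 127 FPKM there, and at 20 mM from 2.82 to 27.9 FPKM. Gprc5b, of the same family as Gprc5a, was expressed without forskolin, and went from 32.7 to 258 FPKM at 2.8 mM, and at 20 mM from 14.6 to 71.5 FPKM. It was lower at 20 mM in both treatments, where Gprc5a was higher in both. No other relative of the 3 receptors on a list of 9, among them Rxfp1, Rxfp4 and Ntsr2, was analysed here. Cxcr7, an atypical chemokine receptor now named Ackr3, had folds of 13.2 at 2.8 mM and 15.5 at 20 mM. The alpha-2A adrenergic receptor Adra2a, which restrains insulin secretion, had 2.30-fold and 3.36-fold. The orphan receptors Gpr6 and Gpr19 had 3.31-fold and 2.46-fold, and 2.63-fold and 1.57-fold. For Gpr180, the glutamate receptor gene Grm2 and the Wnt receptor gene Fzd3 the folds at 2.8 and 20 mM were 13.3 and 2.98, 5.23 and 2.07, and 2.44 and 1.41. These folds are on the scale of FPKM + 0.1.

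A forskolin level higher at 20 mM by 2-fold or more, which Rxfp3 only just reached, was found in 2 of the 21, beside 3.50% of the table. Among them was the calcitonin receptor gene Calcr, with forskolin levels of 0.465 FPKM at 2.8 mM and 1.45 FPKM at 20 mM, picked out after its values were seen. The oxytocin receptor gene Oxtr came close, at 7.74 and 14.9 FPKM in forskolin and at 1.33 and 3.08 FPKM in DMSO. A forskolin level lower by 2-fold or more, as for Ntsr1, was found in 9 of 21, beside 34.1% of the table.

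Of the 367 receptor names, 13 were listed in the A-CREB table. Without virus 10 of the 13 reached 2-fold, beside 80.4% of the table, and with A-CREB 1 did, Cxcr7, beside 19.1%. The forskolin level was lower with A-CREB by 2-fold or more in 6 of the 13, as Rxfp3 was, beside 45.2% of the table. Sstr1 went from 2.18 to 45.2 FPKM without virus and from 1.33 to 2.46 FPKM with A-CREB, and Cxcr7 from 2.89 to 48.1 FPKM and from 1.33 to 4.98 FPKM. Gpr6, Gprc5b and Adra2a were expressed in all 4 libraries and showed no rise with forskolin under A-CREB, at 22.7 and 19.0, 25.5 and 24.3, and 16.0 and 14.4 FPKM in DMSO and forskolin. Without virus they were at 15.9 and 80.0, 19.0 and 45.6, and 11.7 and 23.5 FPKM. Grm2, Gpr180 and the latrophilin gene Lphn3 had folds of 3.61, 2.07 and 2.01 without virus and 1.30, 1.31 and 1.11 with A-CREB. Sstr2, another somatostatin receptor gene, and the Wnt receptor gene Fzd1 had folds of 5.65 and 2.45 in uninfected cells and 1.74 and 1.44 under A-CREB. Their smaller folds came with higher levels under A-CREB. In forskolin Sstr2 went from 1.30 without virus to 1.96 FPKM, and Fzd1 from 0.956 to 1.73 FPKM. In DMSO they went from 0.147 to 1.09 and from 0.332 to 1.17 FPKM. The forskolin level was higher with A-CREB in 3 of the 13 and lower in 10.

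Ligand genes were looked up in a list of 81 peptide precursors and processing enzymes. The genes for relaxin-3 (Rln3) and neurotensin (Nts) were not analysed here. Of the list, 14 were in the glucose table, and 7 of these reached 2-fold at 20 mM, beside 37.2% of all genes. The relaxin gene Rln1 went from 0.240 to 1.60 FPKM at 2.8 mM, and at 20 mM from 0.194 to 0.433 FPKM. None of the 14 had a higher forskolin level at 20 mM, and 10 had one lower by 2-fold or more, beside 34.1% of all genes. Tac1, the substance P precursor, Cartpt, the CART precursor, and Penk, the enkephalin precursor, had forskolin levels of 133, 105 and 7.01 FPKM at 2.8 mM, against 15.7, 35.0 and 3.11 FPKM at 20 mM. Cck, Gast, Stc1 and Vgf, for cholecystokinin, gastrin, stanniocalcin and a granin-like protein, had forskolin levels of 506, 60.8, 438 and 1693 FPKM at 2.8 mM, against 380, 17.6, 172 and 1457 FPKM at 20 mM. Pcsk1, a prohormone convertase, Pomc, the melanocortin precursor, and Agt, for angiotensinogen, had folds of 2.14, 2.28 and 2.00 at 2.8 mM and 1.26, 1.07 and 1.77 at 20 mM. Of the same list 9 were in the A-CREB table and 2 reached 2-fold with A-CREB, beside 19.1% of its genes, namely Stc1 and Agrp, the latter listed at 0 in A-CREB DMSO and counted through the pseudocount. Tac1, Cck, Cartpt and Pnoc, the nociceptin precursor, had folds of 4.30, 4.15, 4.35 and 3.62 in uninfected cells and 1.61, 1.64, 1.14 and 1.31 under A-CREB. Penk, Calca, for calcitonin and CGRP, and Apln, for apelin, had folds of 9.99, 3.68 and 1.60 in uninfected cells and 0.602, 0.959 and 0.688 under A-CREB. Calca was higher with A-CREB in both treatments, at 1.20 and 4.69 FPKM in DMSO and forskolin without virus and 20.4 and 19.5 FPKM with A-CREB. Penk was higher with A-CREB in DMSO, at 0.670 against 3.07 FPKM, and lower in forskolin, at 7.59 against 1.81 FPKM.

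Genes that carry or end a receptor's signal complete the setting. Of 52 G protein and effector genes 6 were in the glucose table, and 0 of the 6 reached 2-fold at 20 mM, beside 37.2% of the table. Adcy5 and Adcy9, which encode adenylyl cyclases, had folds of 5.08 and 2.27 at 2.8 mM and 1.19 and 1.83 at 20 mM. The receptor for inositol trisphosphate Itpr3 and the G protein beta subunit Gnb5 had folds of 3.11 and 2.54 at 2.8 mM, against 1.77 and 1.30 at 20 mM. The inositol trisphosphate kinase Itpkb and the phospholipase Plcb2 had 2.39 and 1.28 at 2.8 mM, against 1.76 and 0.995 at 20 mM. Itpkb was far lower at 20 mM in both treatments, at 59.5 against 3.40 FPKM in DMSO and 142 against 6.06 FPKM in forskolin. The forskolin level was lower at 20 mM by 2-fold or more in 3 of these 6 genes, beside 34.1% of the table. Of 42 desensitisation genes 6 were listed, and 1 reached 2-fold at 20 mM, beside the same 37.2%. This was Rgs2, which speeds the shut-off of Gq, with 230-fold and 23.6-fold. Rasd1, a Ras-related protein that modulates G protein signalling, had folds of 9.49 and 1.23 at 2.8 and 20 mM, and Rgs16 had 2.42 and 1.71. Rasd2 had 2.64 and 1.95 and Gpsm3 2.24 and 0.992, while Grk1, a receptor kinase gene of the retina, was listed at 0 in 20 mM DMSO. Rgs16 was higher at 20 mM in both treatments, at 54.7 against 123 FPKM in DMSO and 132 against 210 FPKM in forskolin. Among the 6 desensitisation genes the forskolin level was higher at 20 mM in 2 and lower in 4. In the A-CREB table the fold of the G protein gene Gna13 was 2.08 in uninfected cells and 1.39 under A-CREB. For Rgs2, Rasd1 and Rgs16 the folds were 110, 8.34 and 3.46 in uninfected cells and 3.68, 1.78 and 2.25 under A-CREB. Rgs6 was at 1.70-fold and 0.471-fold.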

How the data were processed

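RNA of 8 libraries was sequenced after mRNA isolation and NEBNext Ultra library preparation, per the labels' protocols. The authors deposited FPKM values, made with TopHat2 and Cuffdiff on rn5, per the submitters' processing notes. Versions, annotation, strand use and library scaling are not given in the sources used here. Libraries were assigned by title and columns by name, and no value column was left unused. In both tables the lowest reference ratio was 2.00, as tested on the values. The members and the 5 gene lists were chosen with earlier results of these data known. Named genes were the receptors, their 3 nearest genes, neighbours in fold order, and all listed members of a list if 12 or fewer, otherwise the 10 highest in mean FPKM, with exceptions stated.

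Log2 ratios, calls and all folds of genes other than the 3 receptors used FPKM + 0.1. Plain ratios of the receptors used no pseudocount. A call was 2-fold. No test was run, since each group has 1 library. Names of lists were matched through symbols and synonyms of a RefSeq table of GRCr8. Relative depth came from genes below a mean of 1 FPKM, whose values in 2 libraries often stand in the ratio of whole numbers up to 6 (tolerance 2%, depths within 1.6 times of each other). The share on such steps was 57.1% to 71.8%. The 2.8 mM and no-virus forskolin libraries, whose ratio to DMSO had been used for listing, were placed through the other forskolin library. A receptor's fragments were the smallest whole numbers within 0.1 or 1% for values below 50. This estimate and the interval of a ratio of folds, from the conditional odds ratio of the 4 fragment numbers, were chosen after seeing the data. The log2 ratios and the depth estimate were checked on simulated data, but the fragment estimate and the intervals were not. Calculations used Python 3.11.15, numpy 2.4.6, pandas 2.3.3, scipy 1.17.1 and matplotlib 3.10.9.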

Additional observations from a re-analysis of the deposited data

Results flagged for a closer look

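In 9 genes named from the lists, the forskolin level was above DMSO in the reference condition and below it in the second. Listing had fixed the first part. The share of all genes with a fold below 0 in the second condition was not counted, so the 9 have no background beside them. Over all genes the median log2 fold was 0.36 with A-CREB and 0.73 at 20 mM. With 1 library per group the difference between conditions was not tested. With A-CREB the log2(FPKM + 0.1) folds were -1.09 for Rgs6, -0.73 for Penk, -0.54 for Apln, -0.26 for Gpr6, -0.15 for Adra2a, -0.0643 for Gprc5b and -0.0599 for Calca. Without virus the same genes had 0.76, 3.32, 0.67, 2.33, 1.00, 1.26 and 1.88. At 20 mM glucose the folds were -0.0121 for Gpsm3 and -0.00769 for Plcb2, against 1.17 and 0.36 at 2.8 mM. Rgs6, Apln, Gpsm3 and Plcb2 were below 1 FPKM in the second condition. Rxfp3, Gprc5a and Ntsr1 had no fold below 0.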

How the results depend on the processing

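With a pseudocount of 1 the log2 folds at 2.8 and 20 mM were 5.73 and 5.36 for Rxfp3, 4.69 and 4.32 for Gprc5a, and 2.98 and 0.21 for Ntsr1, and the changes were -0.37, -0.38 and -2.76. The log2 ratio of 20 over 2.8 mM was then 0.99 for Gprc5a in DMSO and -2.86 for Ntsr1 in forskolin. Relative to the table's median, the folds were 5.85 and 5.04 for Rxfp3, 5.80 and 4.34 for Gprc5a, and 3.82 and 0.43 for Ntsr1, and the changes -0.71, -1.37 and -3.30. The glucose ratios in forskolin were 1.69, 1.30 and -4.03 for Rxfp3, Gprc5a and Ntsr1 on that scale. No receptor value changed sign under any of these settings or with a pseudocount of 0.01, but the changes of Rxfp3 and Gprc5a fell short of 2-fold with a pseudocount of 1, and that of Rxfp3 also relative to the median. The places in fold order at 2.8 mM with a pseudocount of 1 were 15, 30 and 110 for Rxfp3, Gprc5a and Ntsr1, and by lowest change 916, 907 and 17. At 20 mM, 784 genes of the glucose table passed 1.5-fold and 257 passed 3-fold, and 881 and 228 had a fold lower by as much. With A-CREB, 212 and 51 genes of the A-CREB table passed 1.5-fold and 3-fold, and 66 passed 2-fold with a pseudocount of 1. The fold was lower by 3-fold in 189, and by 2-fold with a pseudocount of 1 in 207. Of the other counts, ranks, nearest genes and list medians, 69 of 158 values moved by over 1.5 times. The pseudocount and threshold set these values by construction. No paired analysis was possible because each group has 1 library, and none could be left out.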

Other observations

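Gpr135, a separate orphan receptor gene despite the old name GPCR135 of Rxfp3, was listed in both tables. Forskolin took it from 0.122 to 12.5 FPKM at 2.8 mM, from 0.0996 to 1.84 FPKM at 20 mM, from 0.238 to 1.30 FPKM without virus, and from 0.217 to 0.349 FPKM with A-CREB. Like Ntsr1, it had a forskolin level lower at 20 mM, with a log2 ratio of -2.69 on the FPKM + 0.1 scale. The chemokine receptor gene Cxcr5 went from 1.89 to 16.3 FPKM at 2.8 mM, and at 20 mM from 1.80 to 2.18 FPKM. Its folds on the FPKM + 0.1 scale were 8.22 and 1.21. Both genes were picked out after their values were seen.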
